A study of Mus musculus with 4 samples.

Results

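Carbonic anhydrase messenger RNA was followed in mouse colon with and without intestinal deletion of Nkx2-2, a homeodomain transcription factor gene. The members are the 10 genes Car1, Car2, Car3, Car4, Car7, Car8, Car9, Car12, Car13 and Car14, taken by gene symbol from 23074 symbols in the deposited gene tables. No member passed the test of mutant against control. Car1 was the second most abundant transcript of the tissue in each of the 4 libraries, and Car7 and Car14 were too low to test.

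Carbonic anhydrases are zinc enzymes that turn carbon dioxide and water into bicarbonate and a proton, and back. In the colon they are known for supplying those ions to apical exchangers that take up sodium and chloride and release protons and bicarbonate. Car1, Car2, Car3, Car7 and Car13 encode cytosolic forms, Car4 a form tethered to the outer cell surface, Car9, Car12 and Car14 forms that span the membrane with an outward catalytic domain, and Car8 a related protein without catalytic activity.

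The mice were 6 weeks old and of mixed strain, and the piece sampled was the 2 cm of colon next to the caecum. The 2 control libraries had the genotype Nkx2.2flox/+, without Cre. The 2 mutant libraries had the genotype Nkx2.2flox/flox; Villin-Cre/+, in which the Villin promoter drives Cre in the intestinal epithelium, so that muscle, nerve, fat and blood cells of the same piece keep the gene. Every library therefore carried at least 1 floxed allele, and only the mutants carried Cre. Whether the libraries within a group stem from different animals is not given in the labels. The p-values then rest on the spread between these libraries, which may be technical, and on variance that the test borrows from other genes.

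The unit is FPKM, fragments per kilobase of transcript, scaled to the mapped fragments of the library. Where 4 values follow each other, their order is control 1, control 2, mutant 1, mutant 2. Library totals are not analysed here; the depth of control 2, mutant 1 and mutant 2 was 1.13, 0.464 and 1.03 times that of control 1. Nkx2-2 stood at 0.724, 0.609, 0.125 and 0.351 FPKM, lower in both mutants but below the level needed for a test. Implied fragments, computed from the width of each FPKM interval, numbered 16.4, 15.4, 1 and 4.7. The labels do not name the floxed exons, so a level over the whole gene is a partial check. Epithelial markers (Epcam, Vil1, keratins and others, 7 genes) summed to 5382 to 6875 FPKM in the 4 libraries. Epithelium was thus present in each, though these genes do not mark the colon in particular. Of 12 marker lists, 1 held a gene past the threshold, the enteroendocrine list, in which Chga, Chgb, Tph1 and Insl5 fell (log2 changes of −3.79 to −2.49, limma adjusted p from 0.0140 to 0.0302). Its other 3 genes were above 0 and did not pass: Pyy at 1.28 (57.2, 96.7, 197.7 and 165.7 FPKM, limma adjusted p = 0.404), Gcg at 0.29 and Neurod1 at 0.20. After rescaling the libraries by their median ratio, 0 genes passed in the lower direction. Control 1 stood apart in B cell genes, which summed to 134.8 FPKM there and to 9.51, 15.1 and 11.8 FPKM in the others.

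Promoter sequence was read from the RefSeq table for GRCm38.p6, which holds entries for 5 members: Car4, Car7, Car9, Car12 and Car14. Car1, Car2, Car3, Car8 and Car13 have none there. Of the 5, Car9 and Car12 are shown, the members high enough to test that hold a match to a searched motif. The motifs are the hypoxia response core ACGTG, for which Car9 is the textbook target, and TNAAGTG, the core bound by NK2 homeodomain factors such as the deleted one. Both motifs were searched on both strands in the 250 bases before each start; capitals mark the match, here on the strand opposite to the gene, so that the letters read as the reverse complement. The 150 bases before the start of Car9 (chr4:43506876-43507025, plus strand) and of Car12 (chr9:66713536-66713685, plus strand) read 5′ to 3′ as follows.
Car9: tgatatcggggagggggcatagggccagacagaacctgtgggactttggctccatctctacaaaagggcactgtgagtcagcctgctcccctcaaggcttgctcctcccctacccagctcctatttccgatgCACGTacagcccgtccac
Car12: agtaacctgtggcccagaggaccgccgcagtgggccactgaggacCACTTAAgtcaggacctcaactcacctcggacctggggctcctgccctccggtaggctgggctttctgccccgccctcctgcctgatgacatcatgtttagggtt
The hypoxia core lay 18 to 14 bases before the start of Car9 and 7 to 3 bases before that of Car14, and 16.6% of all 32851 promoters held it. The NK2 core lay 105 to 99 bases before the start of Car12 and 32 to 26 bases before 1 of the 3 starts of Car7, and 10.1% of all promoters held it. Each core was held by 2 of the 7 member promoters, too few promoters to set the members apart from those shares. These matches are letters in a window and are not measured binding sites.

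The members spanned a wide range of levels, in the order Car1, Car4, Car2, Car12, Car8, Car13, Car9, Car3, Car7 and Car14 by mean FPKM over the 4 libraries. The means were 17693 FPKM for Car1, 417.2 for Car4, 309.3 for Car2, 38.4 for Car12, 35.7 for Car8, 27.8 for Car13, 27.0 for Car9, 12.9 for Car3, 0.309 for Car7 and 0.127 for Car14. The ranges over libraries overlapped between Car4 and Car2, Car12 and Car8, Car13 and Car9, Car9 and Car3, and Car7 and Car14, so these neighbours were not separated beyond their spread. Car4 was nevertheless above Car2 within each of the 4 libraries. Ranges did not overlap between Car1 and Car4, Car2 and Car12, Car8 and Car13, or Car3 and Car7.

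**Figure D1:**
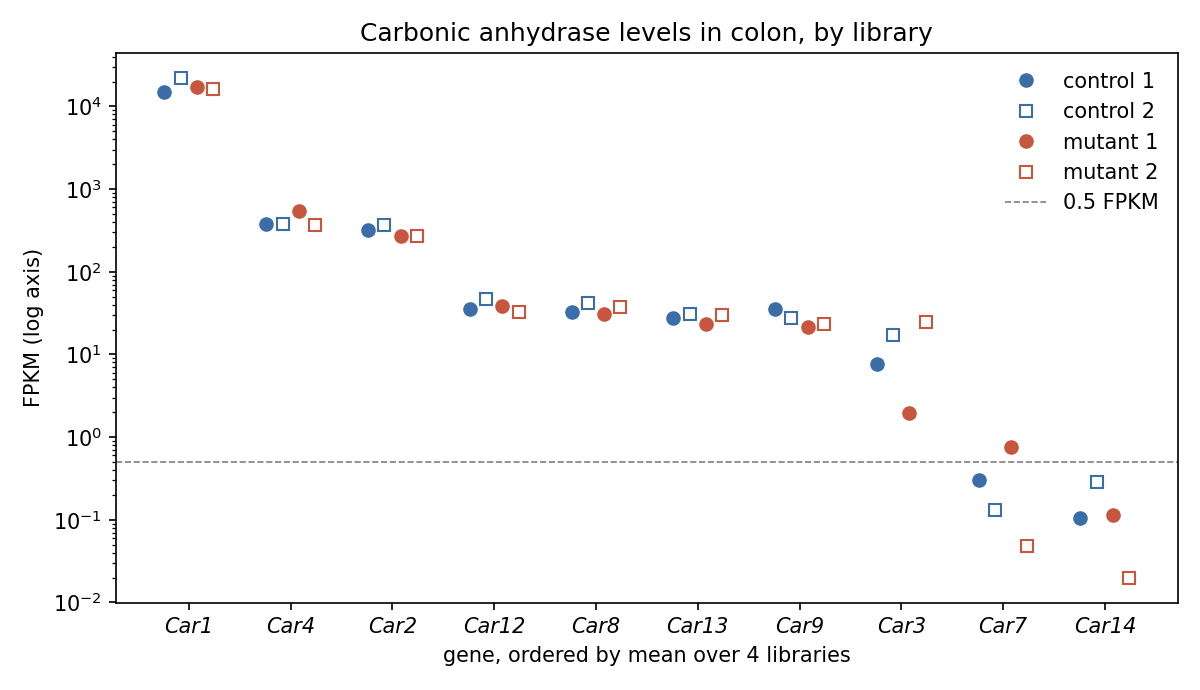
Level of the 10 carbonic anhydrase genes in FPKM (log axis), 1 point per library, blue for control and red for mutant, genes ordered by their mean. The dashed line is the mean level of 0.5 FPKM needed for a test, and values under 0.02 FPKM (Car14 in mutant 2) are drawn at 0.02; Car1 lies far above the rest, and Car3 and Car7 spread most within a group among the genes drawn at their own value.

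All 10 members together summed to 15952 and 22971 FPKM in the controls, and to 18259 and 17064 FPKM in the mutants. The family thus made up 2.57%, 3.80%, 3.38% and 2.89% of all summed FPKM. Car1 alone gave 94.7%, 96.0%, 94.9% and 95.4% of the family's sum. The other 9 members together came to 840.7, 908.7, 939.7 and 785.9 FPKM.

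In the test of mutant against control, 0 of the 8 tested members passed the threshold, against 0.0643% of the 13997 genes tested (limma, Benjamini-Hochberg adjusted p under 0.05 over all of them). Member adjusted p-values ran from 0.825 to 0.863. By unadjusted p under 0.05, 1 member passed, Car9, against 4.82% of all tested genes. The authors' deposited table of their own count test gave every member an adjusted p of 1, against 0.0384% of its genes called. With 2 libraries against 2, an exact permutation test of a single gene cannot go below p = 0.333.

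Log2 changes below are mutant minus control on the log2(FPKM + 0.5) scale. The median over the 8 tested members was −0.16, and over all tested genes −0.17, so most genes sat slightly below 0 in the deposited scale. Of the members, 7 were below 0 and 1 above, against 82.6% of all tested genes below 0. Against the median of all tested genes, 4 members were below, against 50% of all by construction, and 4 above. Both mutants lay below both controls for 2 members, Car2 and Car9, against 35.1% of all tested genes, and both lay above both controls for 0 members, against 3.39%. With 8 members, counts of 2 and 0 are near those backgrounds and set the members apart in neither direction. In bulk tissue, fewer cells of a type and less RNA per cell cannot be told apart, for these values and those that follow.

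**Figure D2:**
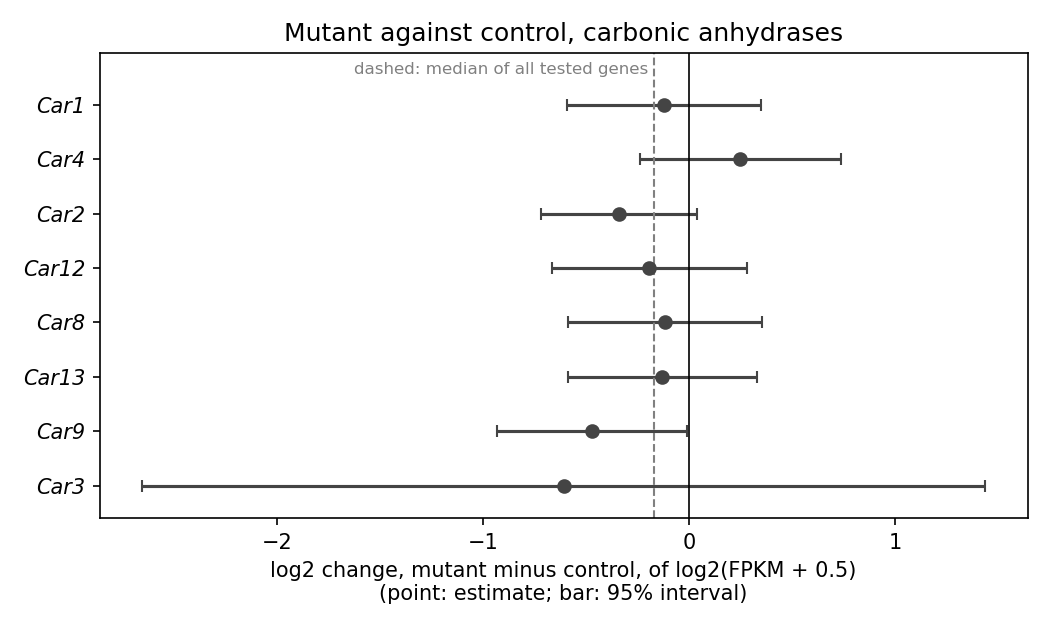
Log2 change of the 8 tested carbonic anhydrase genes, mutant minus control, on the log2(FPKM + 0.5) scale, with points for the estimate and bars for the 95% interval from limma. The dashed line is the median of all tested genes, −0.17; Car9 is the 1 gene whose interval, −0.93 to −0.01, does not include 0, and Car3 has the widest, −2.66 to 1.44.

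Car13, Car1, Car3 and Car2 lie side by side on chromosome 3 and span 259 kb in mm9, the build of the deposited files, with Car13 at chr3:14641727-14663002 on the plus strand, Car1 at chr3:14766214-14808365 on the minus strand, Car3 at chr3:14863538-14872373 and Car2 at chr3:14886426-14900770, both on the plus strand. Their levels differed widely: Car1 was 1989, 1282, 8881 and 659.6 times Car3. Their log2 changes were −0.13 for Car13, −0.12 for Car1, −0.61 for Car3 and −0.34 for Car2, and none passed the test.

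Car1, a cytosolic enzyme of colonocytes and red cells, stood at 15111.6 and 22062.5 FPKM in the controls and at 17319.6 and 16277.6 FPKM in the mutants. Control 1 was the lowest library and control 2 the highest, with both mutants between them. It held rank 2 of all genes in every library, behind Reg3b, an antimicrobial lectin gene, and took 2.43%, 3.65%, 3.21% and 2.76% of all summed FPKM. The log2 change was −0.12 (SE 0.21, limma adjusted p = 0.860), with a 95% interval of 0.663 to 1.28 in fold. Without control 1, Car1 was the 1 member past the threshold, at −0.39 (limma adjusted p = 0.0347), where 0.886% of all genes were called and the fit gave genes of like level the same variance; without control 2 it turned to 0.15 (limma adjusted p = 0.946). In the authors' deposited table, the mean normalised count of Car1 was 218274 in controls and 217756 in mutants, a log2 ratio of −0.0034, and its rank among all genes was 1 and 3.

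Mouse Car1 is known to be read from a far upstream promoter in red cell precursors and from a nearer one in colon, and the isoform tables list a transcript for each start. The transcript NM_001083957, of 1184 bases at chr3:14766214-14778460, stood at 15111.6, 22044.1, 17288.6 and 16258.5 FPKM, which is 100%, 99.9%, 99.8% and 99.9% of the gene. The transcript NM_009799, of 1196 bases, starts 29905 bases farther upstream. It was listed at essentially 0 in control 1, with an upper bound of 0.135 FPKM, and at 18.4, 31.1 and 19.2 FPKM in control 2, mutant 1 and mutant 2, at most 0.179% of the gene. Nearly all Car1 signal was thus assigned to the nearer start in both groups. The nearer transcript had a log2 change of −0.12 (SE 0.23, limma adjusted p = 0.902), and that of the upstream one was 3.02 (SE 1.68, limma adjusted p = 0.853), which rests on the near-zero value of control 1. The 2 transcripts share most of their length, so the split depends on the few reads at their first exons. Of 11 member isoforms 9 were tested and 0 passed, against 0.00592% of 16903 isoforms tested.

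Red cell genes were measured beside Car1. Hba-a1, a hemoglobin alpha gene, stood at 57.1, 90.1, 29.9 and 34.2 FPKM, and the 7 red cell genes with a row summed to 97.4, 166.1, 42.2 and 69.8 FPKM. Of these, 5 were tested and 0 passed (smallest limma adjusted p = 0.447). The median log2 change of the 5 was −1.89, which is the value of Hbb-b1 (15.5, 14.2, 0.428 and 17.9 FPKM), and it was −0.65 without mutant 1. Epb4.2 was listed at 0 in 1 library. Hba-a1 and Hba-a2, and likewise Hbb-b1 and Hbb-b2, are near-identical copies whose reads may be split between them. Hbb-b2 stood at 5.91, 19.6, 10.3 and 0.00219 FPKM, lowest where Hbb-b1 was highest. Hba-a2 stood at 17.9, 41.0, 0.00115 and 17.1 FPKM. The median of −1.89 may therefore depend on this split. The part of red cells in the Car1 values was not tested.

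Car2, a fast cytosolic enzyme found in many epithelia, stood at 321.6 and 370.3 FPKM in the controls and at 272.8 and 272.5 FPKM in the mutants. Both mutants were below both controls and nearly equal to each other. The group means were 346.0 ± 34.4 and 272.7 ± 0.174 FPKM (SD, n = 2 each), and the log2 change was −0.34 (SE 0.17, limma adjusted p = 0.825), with an interval of 0.608 to 1.03 in fold. After rescaling the libraries by their median ratio, which brought the median change of all genes to −0.01, the groups overlapped, at 295.8 and 357.2 against 310.0 and 271.0 rescaled FPKM.

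Car3 is a cytosolic form with low catalytic activity that is abundant in fat and muscle. It stood at 7.60 and 17.2 FPKM in the controls and at 1.95 and 24.7 FPKM in the mutants. The lowest and the highest library were both mutants, 12.7-fold apart, and the controls lay between them. Implied fragments were 151, 386, 18 and 506, fewest in mutant 1. The log2 change was −0.61 (SE 0.89, limma adjusted p = 0.847), with an interval of 0.159 to 2.71 in fold. It was −2.29 without mutant 2 and turned to 1.07 without mutant 1, and in the authors' deposited table it was 0.18.

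Some fat cell genes had the library order of Car3. Of the 8 genes in the adipocyte list, 5 (Adipoq, Cidec, Retn, Cfd and Fabp4) had the libraries in the same order as Car3, mutant 1 lowest, then control 1, control 2 and mutant 2, against 6.19% of all tested genes. Plin1, Plin4 and Lep had other orders. Cfd, which encodes adipsin, stood at 7.26, 16.1, 1.20 and 23.1 FPKM, close to the Car3 values. Adipoq, the adiponectin gene, stood at 2.08, 2.47, 0.559 and 5.79 FPKM, and Retn, the resistin gene, at 0.714, 2.38, 0 and 5.02 FPKM. Fabp4 stood at 43.6, 45.7, 23.9 and 52.4 FPKM, a narrower spread than that of Car3. Cidec stood at 7.56, 9.73, 7.37 and 9.87 FPKM, where the order rests on small differences. These genes were singled out after their values were seen. The whole list summed to 64.8, 80.4, 36.0 and 100.6 FPKM, with Fabp4 the largest part in each library and Retn the gene at 0 in mutant 1. Of its 7 tested genes 0 passed, with a median log2 change of −0.17, as over all tested genes. Skeletal muscle is the other usual source of Car3. Its 8 listed genes summed to 23.7, 30.2, 15.2 and 20.0 FPKM, a sum in another order, though mutant 1 was lowest there too. Ckm and Acta1 were the largest parts of that sum, and Myh1, Myh2 and Myh4 were at 0 in at least 1 library each. The orders of the single muscle genes were not counted. Mutant 1 was also lowest in the smooth muscle, enteric neuron, red cell, surface colonocyte and crypt sums. It was not lowest in the epithelium, goblet, enteroendocrine, B cell or Hox sums. The parts of fat and of muscle in the Car3 values were not tested.

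**Figure D3:**
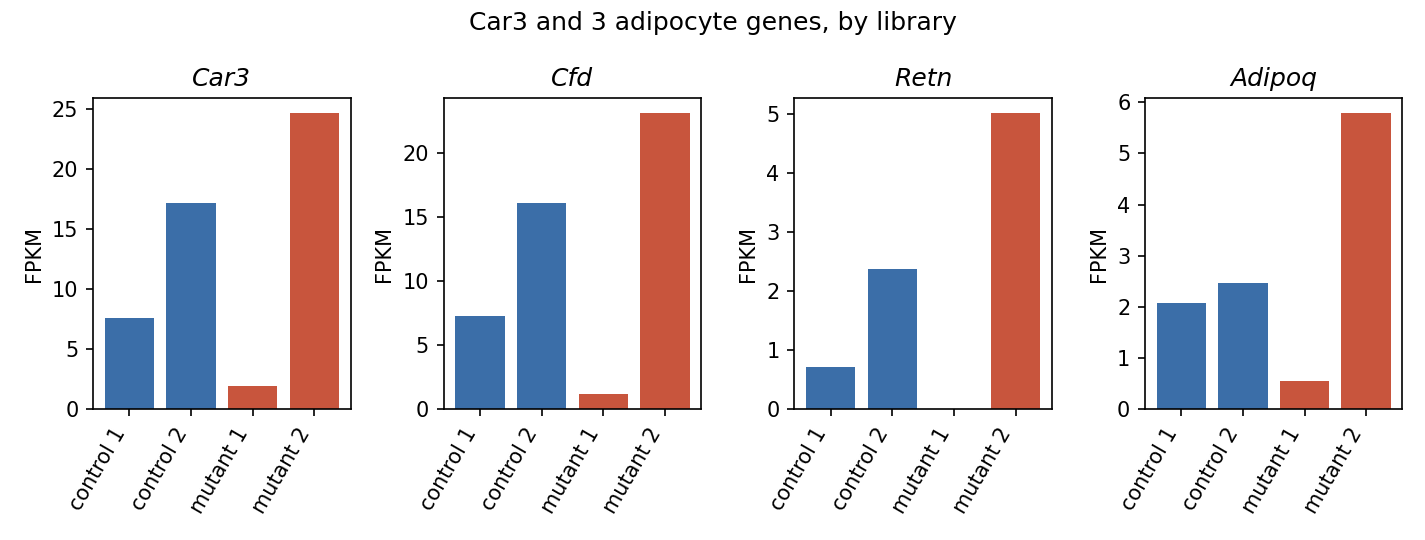
FPKM of Car3 and of the adipocyte genes Cfd, Retn and Adipoq, each on its own linear axis from 0, 1 bar per library, blue for control and red for mutant. In each panel mutant 1 is lowest and mutant 2 highest, with Car3 from 1.95 to 24.7 FPKM and Cfd from 1.20 to 23.1 FPKM. Retn was at 0 in mutant 1. Cfd, Retn and Adipoq were drawn from a list of 8 genes after their values were seen. Of that list, Plin1, Plin4 and Lep had other orders, and Fabp4 and Cidec had narrower spreads.

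Car13, a cytosolic form, stood at 27.4 and 30.6 FPKM in the controls and at 23.3 and 30.1 FPKM in the mutants. The groups overlapped, with mutant 2 between the controls, and the log2 change was −0.13 (SE 0.20, limma adjusted p = 0.854). After rescaling by median ratio it was 0.043, and without mutant 1 it was 0.053.

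Car7, the cytosolic form known from brain, stood at 0.300 and 0.133 FPKM in the controls and at 0.753 and 0.0484 FPKM in the mutants. Its gene is at chr8:107064707-107074243, plus strand. The 2 mutants were the highest and the lowest library, on 6, 3, 7 and 1 implied fragments, and no difference was detectable at this depth.

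Car4, the surface-tethered enzyme, lies at chr11:84771256-84779556 on the plus strand. It stood at 379.7 and 374.5 FPKM in the controls and at 549.2 and 365.6 FPKM in the mutants. Mutant 1 was high and the other 3 libraries lay within a narrow band, so the groups overlapped. The log2 change was 0.25 (SE 0.21, limma adjusted p = 0.825), the 1 member above 0, with an interval of 0.847 to 1.67 in fold; without mutant 1, the shallowest library, it was −0.045. The ratio of Car4 to Car2 was 1.18, 1.01, 2.01 and 1.34, highest in the same library. In the authors' deposited table the log2 ratio of Car4 was 0.45. After rescaling by median ratio, the log2 change was 0.42, and the controls stood at 349.2 and 361.2 and the mutants at 624.2 and 363.5 rescaled FPKM, so that both mutants were above both controls, with mutant 2 above control 2 by a small margin, against 13.9% of all tested genes.

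Car9, a membrane-spanning enzyme known as a hypoxia target and from the basolateral face of gut epithelium, lies at chr4:43519898-43526597 on the plus strand. It stood at 35.8 and 27.3 FPKM in the controls and at 21.7 and 23.2 FPKM in the mutants. Both mutants were below both controls, and control 1 was the highest. The group means were 31.5 ± 5.99 and 22.5 ± 1.02 FPKM (SD, n = 2 each). The log2 change was −0.47 (SE 0.20), with an interval of 0.525 to 0.995 in fold; the limma p was 0.0470 before adjustment and 0.825 after it over all genes. The unadjusted p was 0.0953 after rescaling by median ratio, 0.0964 after quantile normalization, 0.0666 without the variance trend, and 0.0670 to 0.444 with 1 library left out, so that it did not stay under 0.05. After rescaling by median ratio the log2 change was −0.30, and the mutants were below the controls, at 24.7 and 23.0 against 32.9 and 26.3 rescaled FPKM, against 16.2% of all tested genes. In the authors' deposited table the log2 ratio was −0.29. The span of the antisense gene Gm12454 overlaps that of Car9, and without stated strand, reads from a shared stretch cannot be told apart.

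Car12, a membrane-spanning enzyme whose promoter holds the NK2 core shown above, lies at chr9:66561493-66614652 on the plus strand. It stood at 35.6 and 46.5 FPKM in the controls and at 39.0 and 32.4 FPKM in the mutants. The groups overlapped, with mutant 1 between the controls, and the log2 change was −0.19 (SE 0.21, limma adjusted p = 0.834), close to the median of all genes. It was −0.019 after rescaling by median ratio and −0.00039 without control 2.

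Car14, a membrane-spanning form at chr3:95701723-95708562 on the minus strand, stood at 0.105 and 0.287 FPKM in the controls, at 0.114 FPKM in mutant 1 and at essentially 0 in mutant 2, with an upper bound of 0.0909 FPKM. It rested on at most 6 implied fragments in a library. Its span overlaps that of Aph1a on the other strand, and without stated strand, reads from a shared stretch cannot be told apart. No difference was detectable at this depth.

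Car8, the member without catalytic activity, is known from Purkinje cells as a partner of an inositol trisphosphate receptor. Its gene lies at chr4:8068640-8166188 on the minus strand and overlaps the pseudogene Gm11799. It stood at 32.6 and 41.8 FPKM in the controls and at 30.9 and 37.5 FPKM in the mutants, a level similar to that of Car12. The groups overlapped, and the log2 change was −0.12 (SE 0.21, limma adjusted p = 0.863); it was 0.056 after rescaling by median ratio and 0.026 in the authors' deposited table.

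The remaining carbonic anhydrase genes were low. Of 6 listed, Car11 and Car15 reached the level needed for a test and neither passed. Car11, a catalytically inactive relative, stood at 1.13 and 1.67 FPKM in the controls and at 1.16 and 0.732 FPKM in the mutants, a log2 change of −0.40 (SE 0.30, limma adjusted p = 0.825). Car15, a surface-tethered form, stood at 1.04 and 1.38 FPKM in the controls and at 0.639 and 0.719 FPKM in the mutants, a log2 change of −0.53 (SE 0.28, limma adjusted p = 0.825). The other 4, which include the mitochondrial forms, stayed at or below 0.655 FPKM in every library.

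Genes that carry the ions these enzymes make and use were read from a list of 23 bicarbonate and proton transport genes. Of the 15 tested, 0 passed, 14 were below 0 and 1 above, against 82.6% of all tested genes below 0, and the median log2 change was −0.09, against −0.17 over all tested genes. Both mutants lay below both controls for 3 of the 15, against 35.1% of all tested genes. These were Slc4a2 (87.4 and 92.7 against 66.8 and 75.8 FPKM, log2 change −0.34), Slc4a3 and Cftr, named after their values were seen. Slc4a3 was low, at 2.02 and 1.78 against 0.844 and 1.55 FPKM. Cftr stood at 29.52 and 30.3 against 26.8 and 29.50 FPKM, a log2 change of −0.09, with mutant 2 below control 1 by a small margin. Slc9a3r1, a scaffold of the apical exchangers and the highest of the list, stood at 170.8, 204.6, 172.3 and 194.2 FPKM.

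The next 4 of the list by mean over the 4 libraries, all exchangers, had overlapping groups. Slc26a3, the chloride and bicarbonate exchanger of surface cells, stood at 75.3 and 170.3 FPKM in the controls and at 78.8 and 95.02 FPKM in the mutants, a log2 change of −0.39 (SE 0.34). Slc9a2, a sodium and proton exchanger, stood at 92.7 and 133.3 against 107.5 and 104.8 FPKM, a log2 change of −0.07. Slc9a3, a further sodium and proton exchanger, stood at 70.5 and 124.0 against 100.9 and 106.8 FPKM, and its log2 change of 0.15 was the 1 above 0. Slc26a2, a sulfate and chloride exchanger, stood at 68.7 and 98.2 against 88.0 and 73.9 FPKM, a log2 change of −0.03. For these 4 exchangers, as for Car1, control 1 was the lowest and control 2 the highest library. The same held for Slc9a3r1 and for the epithelial genes Cdh1, Krt8, Krt18 and Krt19, but not for Epcam, Krt20 or Vil1. These genes were named after their values were seen. The share of all tested genes with this pattern was not computed, so it cannot be said to set them or Car1 apart. Surface colonocyte genes, 7 with a row and Slc26a3 among them, summed to 5472, 6631, 5230 and 5782 FPKM, with 0 of 7 past the threshold and a median log2 change of −0.15. Their part in these values was not tested.

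**Figure D4:**
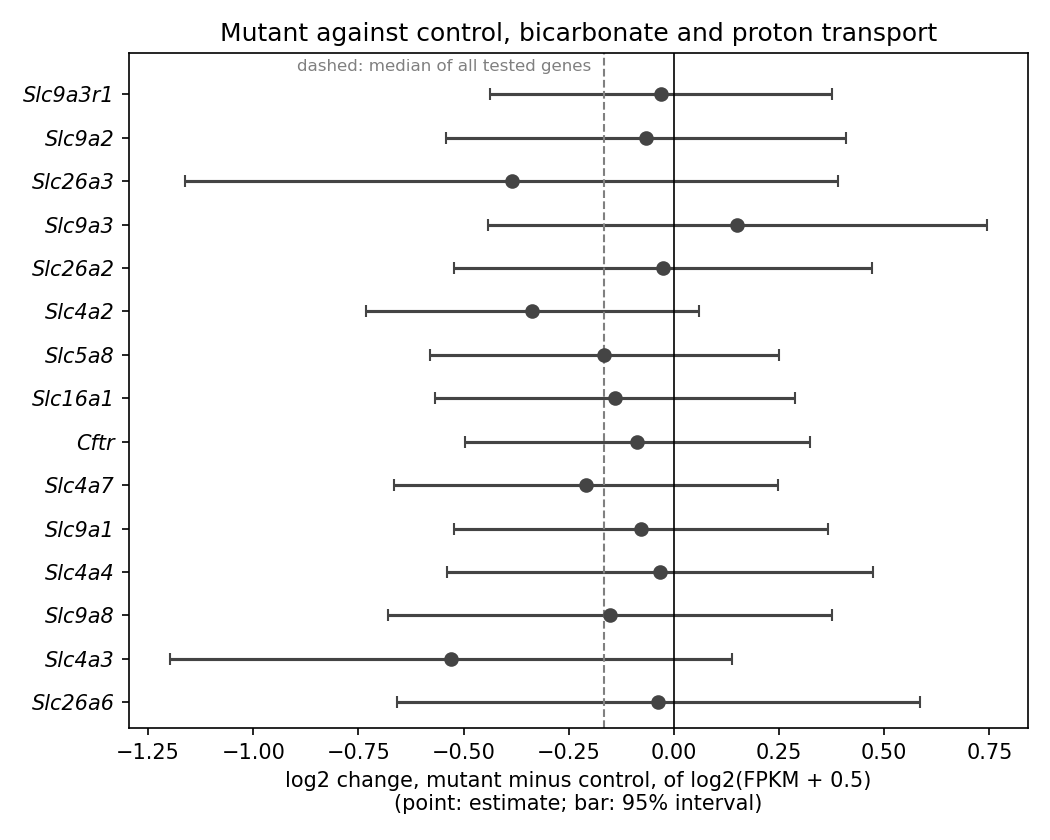
Log2 change of the 15 tested bicarbonate and proton transport genes, mutant minus control, on the log2(FPKM + 0.5) scale, with points for the estimate and bars for the 95% interval from limma, ordered from the top by their mean FPKM over the 4 libraries. The dashed line is the median of all tested genes, −0.17, and every interval includes 0.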

How the data were processed

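RNA of a proximal colon piece in 4 libraries (2 control, 2 mutant) was made into TruSeq libraries from column-purified total RNA, per the labels' protocols. Per the submitters' processing notes, bcl2fastq 1.8.4, TopHat, Cufflinks and DESeq were used with mm9; other versions, the annotation and the strand are not given in the sources used here. FPKM values with 95% intervals for genes and isoforms, and a coverage signal per isoform, were deposited by the authors, 1 library per table, per the file headers. The authors' deposited table of their own comparison holds mean normalized counts (a signal scaled by size factors), their ratio, its log2 value, and p-values, per the file headers; its libraries were matched to groups through the labels.

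Rows sharing a symbol were summed, from 23699 rows to 23074 symbols; 306 rows with a Cufflinks status other than OK in any library were left out. As FPKM are not counts, limma 3.58.1 (R 4.3.3) was fitted to log2(FPKM + 0.5) over the 13997 genes averaging 0.5 FPKM or more, with a variance trend, two-sided, and Benjamini-Hochberg adjustment at 0.05 over all of them. The fit had 2 residual degrees of freedom. Depth relative to control 1 was taken from the ratio of coverage to FPKM. Implied fragments were computed from each FPKM interval, and they cover counting error only. Scripts were tested on simulated data.

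Named were Nkx2-2, all 10 members, the other carbonic anhydrase genes averaging 0.5 FPKM or more, the 5 highest genes and any past the threshold of the transport and hypoxia lists, the sums of the marker lists with their genes at 0, and the 3 genes most like Car1 and like Car9. The members, lists and rules were chosen with earlier results of these data known. Other settings tried were the scaling, pseudocount, filter and variance trend, the row status, the replicate block, each library left out, and the authors' table. A gene of the transport list is not reported here and was left out of its counts.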

Additional observations from a re-analysis of the deposited data

How the results depend on the processing

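The count of all genes past the threshold, 9 (5 higher, 4 lower), moved to 2 without the filter, 3 after median ratio rescaling (3 higher, 0 lower), 2 after quantile normalization and 195 with the replicate number as a block; leaving out 1 library gave 8 to 362, with 124 without control 1 and 362 without control 2. With the block and without either control, limma gave genes of like level the same variance (its prior degrees of freedom were unbounded). Whether the 2 numbers pair libraries across the groups is not given. The deviations of same-numbered libraries had a correlation of −0.0022 over 13997 genes, which rests on 1 difference per group and cannot settle it. No member passed under the block. Of the members, 0 passed in 13 of 14 alternatives and 1 without control 1, so that leaving out 1 library gave 0 to 1. Their median log2 change of −0.16 moved to 0.012 after median ratio rescaling and to 0.011 in the authors' deposited table, and ran from −0.34 (without control 1) to −0.022 (without control 2) with 1 library left out. Member isoforms past the threshold stayed at 0 under all 6 alternatives run.

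The direction turned for Car1 at 0.054 after median ratio rescaling and 0.15 without control 2, and its change was 0 after quantile normalization. It turned for Car8 at 0.056 after rescaling, 0.050 after quantile normalization, 0.061 without control 2, 0.021 without mutant 1 and 0.026 in the authors' table, and for Car13 at 0.043, 0.039, 0.053 without mutant 1 and 0.029 in the authors' table. Car3 turned at 1.07 without mutant 1 and 0.18 in the authors' table, and Car4 at −0.045 without mutant 1. With 1 library left out, log2 changes ran from −0.39 to 0.15 for Car1, −2.29 to 1.07 for Car3, −0.045 to 0.54 for Car4, −0.29 to 0.061 for Car8, −0.31 to 0.053 for Car13, −0.44 to −0.24 for Car2, −0.66 to −0.28 for Car9 and −0.38 to −0.00039 for Car12. The cause was not tested. Car2 and Car9 kept their direction in all 14 alternatives, as did Car12, and none of the 3 passed. The change of Car12 came near 0 without control 2, after both rescalings (−0.019 and −0.017) and in the authors' table (−0.044). The filter, variance trend, block and row status settings leave these log2 changes as they were, so they could not turn them. For Car2 and Car9, with both mutants below both controls, neither another pseudocount nor leaving out 1 library could turn the direction. Rescaling took members with both mutants below both controls from 2 to 1, an alternative chosen after seeing the data. With 1 library left out, the lone library is assumed to vary like the others. Car7 and Car14 were below the level filter and rested on few fragments, and mutant 1 was the shallowest library.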

Other observations

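Hypoxia target genes were read as a list because Car9 is a known target. Of the 14, all tested, 0 passed the threshold (limma, adjusted over all genes), 10 were below 0 and 4 above, against 82.6% of all tested genes below 0, and the median log2 change was −0.10, against −0.17 over all tested genes and −0.47 for Car9. Ldha, the lactate dehydrogenase A gene, stood at 530.5, 587.8, 544.7 and 580.6 FPKM, in the order control 1, control 2, mutant 1, mutant 2, which holds below too. Pgk1, a glycolytic kinase gene, stood at 142.6, 135.3, 128.2 and 161.3 FPKM, and Ndrg1, a stress response gene, at 106.9, 155.8, 124.3 and 94.6 FPKM. Slc2a1, the glucose transporter gene, stood at 46.1, 59.0, 51.1 and 49.0 FPKM, and Hk2, a hexokinase gene, at 42.5, 49.1, 40.4 and 53.6 FPKM. Groups overlapped for each of these 5. Of the other 9, both mutants lay below both controls for Egln1, Ankrd37 and Ero1l and above them for Adm, against 35.1% and 3.39% of all tested genes; these 4 were named after their values were seen.

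Likeness of pattern over the 4 libraries was measured as the Euclidean distance between values on the log2(FPKM + 0.5) scale after taking off each gene's mean, over the 9312 genes whose mean was 5 FPKM or more. Nearest to Car1 were Snhg3 (0.03), Clec14a (0.04) and the exchanger gene Slc9a2 (0.07). Nearest to Car9 were Cebpd (0.04), Mkl1 (0.05) and Axin2 (0.07), a Wnt target gene of crypt cells. Axin2 stood at 11.6, 9.18, 7.17 and 7.91 FPKM. With 4 libraries, such distances are a description. Of the 7 crypt base and dividing cell genes, Axin2 among them, 3 were below 0, against 82.6% of all tested genes, and 4 above.

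The remaining marker lists, each summed over its genes, held no gene past the threshold. Goblet cell genes summed to 11444, 10387, 9495 and 9140 FPKM, smooth muscle genes to 1948, 1746, 1431 and 1816 FPKM, crypt base and dividing cell genes to 104.6, 91.4, 83.2 and 119.3 FPKM, enteric neuron genes to 34.1, 32.4, 15.3 and 25.8 FPKM and posterior Hox genes to 5.88, 3.90, 5.37 and 5.15 FPKM. Pax5 and Fcer2a of the B cell list, and Hoxb13, Hoxd13 and Hoxd12 of the Hox list, were at 0 in at least 1 library. The enteroendocrine list, with 4 genes that fell and 3 above 0, of which Pyy had both mutants above both controls, summed to 254.4, 412.0, 326.5 and 284.6 FPKM.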
